A study of Mus musculus with 12 samples.

Results

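The mitochondrial ribosomal protein genes, named Mrpl for the large subunit and Mrps for the small one, are nuclear genes whose protein products build the ribosome inside mitochondria. Their rows were found by name in the deposited gene matrix, which matched 83 rows. Of these, 5 carry the pseudogene suffix -ps and were left out, and Mrpl53, with 2 reads over all libraries, was left out because it did not reach a value of 1 in 3 libraries. The remaining 77 genes are the members described here, out of 53465 genes in the matrix and 20419 tested. They hold 48 Mrpl and 29 Mrps genes. By structure, 50 members belong to the large subunit, among them Mrps30 and Mrps18a despite their names. A further 26 belong to the small subunit. Mrps36 is not a ribosomal subunit, since its product works with the oxoglutarate dehydrogenase complex.

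RNA was sequenced from peritoneal macrophages of C57BL/6 mice at postnatal week 10, in 12 libraries. Lyz2Cre-BHLHE40-Fl with lipopolysaccharide (LPS), Lyz2Cre with LPS, Lyz2Cre-BHLHE40-Fl control and Lyz2Cre control had 3 libraries each, and all 4 groups carry Lyz2Cre, a Cre recombinase expressed from the lysozyme 2 locus of myeloid cells, so that it acts in macrophages, monocytes and neutrophils alike. BHLHE40 belongs to the helix-loop-helix factors that bind E-boxes, Fl is not explained further in the labels, and LPS is a bacterial outer membrane component that activates macrophages through TLR4. Neither the dose and time of LPS nor the origin of the replicates (separate animals or cultures) is stated, and the p-values cover the spread among 3 libraries, which may be technical. Lyz2Cre-BHLHE40-Fl is shortened to BHLHE40-Fl below.

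A mitochondrial ribosome has a small subunit, which reads the messenger RNA and is built on the 12S rRNA (mt-Rnr1), and a large subunit, which joins the amino acids and is built on the 16S rRNA (mt-Rnr2). Both rRNAs are made in the mitochondrion and all of the proteins are imported from the cytosol. The ribosome translates the mitochondrially encoded subunits of the respiratory chain and of ATP synthase, whose activity is known to be remodelled when macrophages meet LPS. Many nuclear genes of this machinery are known to be driven by the factors NRF1, GABP (Gabpa) and YY1, with coactivators of the PGC-1 family and MYC.

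Depth and group checks bear on what follows. The libraries held 20489417 to 29354869 reads assigned to genes, and 1 read was worth 0.725 to 1.56 in the deposited values, which are reads divided by 1 factor per library. The deposited values sum to very different totals, 30440800 to 31416600 in BHLHE40-Fl with LPS, 36738100 to 38095800 in Lyz2Cre with LPS, 19875800 to 20375800 in BHLHE40-Fl controls and 22598000 to 22783400 in Lyz2Cre controls. Setting all libraries to equal totals therefore moved the median log2 difference of all genes by -0.51 for LPS in BHLHE40-Fl, -0.58 for LPS in Lyz2Cre, 0.24 for genotype with LPS, 0.17 for genotype in controls and 0.09 for the interaction. Bhlhe40 itself stood at 1956, 2415 and 2327 in BHLHE40-Fl with LPS, against 2544, 2212 and 2644 in Lyz2Cre with LPS, and at 8046, 7617 and 8016 in BHLHE40-Fl controls, against 4886, 4737 and 5306 in Lyz2Cre controls. The label was thus not matched by lower RNA in controls, a whole-gene value does not show a lost exon, and each direction between genotypes rests on the label. The summed value of 10 mesothelial and stromal markers was 11718 to 15623 in BHLHE40-Fl with LPS against 3133 to 4593 in Lyz2Cre with LPS, and 10836 to 14001 in BHLHE40-Fl controls against 1951 to 2111 in Lyz2Cre controls, with 10 of 10 higher in both. The 8 macrophage markers summed to 75461 to 79881 against 130292 to 135555 with LPS and to 61981 to 70469 against 114318 to 127481 in controls, with 7 of 8 lower in both. The summed neutrophil markers were 136 to 229 against 977 to 1233 with LPS and 45 to 74.9 against 412 to 754 in controls, with Ly6g at 0 in all libraries, and those of T and NK cells 3.1 to 7.1 against 59.2 to 68.9 and 5 to 12.7 against 60.8 to 73.7. B cell markers stood at 47.5 to 71.4 against 49.7 to 88.9 with LPS and 19.7 to 48.8 against 46.9 to 67.3 in controls, and mast cell markers at 5.9 to 15.1 against 38.6 to 57 and 21 to 24.5 against 36 to 68.9. The part of such differences in cell make-up in the values below was not tested, and in bulk RNA fewer cells of a type and less RNA per cell cannot be told apart.

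The members are short genes spread over 17 chromosomes, with 11 on chromosome 11 and 8 on chromosome 17. Their median exonic length was 2533 bases against 4367.5 for the 14704 tested protein-coding genes, and their median number of exon blocks was 5 against 9. A protein-coding gene starts on the opposite strand within 1000 bases of the start in 33 of 77 members (42.9%), against 15.0% of tested protein-coding genes. Examples are Mrps18b beside Ppp1r10, Mrps27 beside Ptcd2, Mrpl30 beside Mitd1, and Mrps11 and Mrpl46, which start beside each other. The read counter and its strand setting are not stated. Sequence of at least 50 bases is shared with transcripts of another gene over more than 20% of its length in 10 members, so their reads are uncertain. These are Mrps34 (71.8%, mainly Mapk8ip3), Mrps25 (68.2%, Nr2c2), Mrpl19 (37.0%, Gcfc2), Mrpl43 (31.6%, Twnk), Mrps18b (30.2%, Gm16279), Mrpl27 (26.9%, Gm6304), Mrpl24 (23.3%), Mrpl47 (23.3%), Mrps18c (22.9%) and Mrpl22 (22.4%).

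The promoters of 6 members are shown. Mrpl12, Mrps18b and Mrps27 had the largest interactions, Mrpl27 had the largest rise with LPS in BHLHE40-Fl, and Mrps18c and Mrpl37 were chosen for holding an E-box, the motif bound by the family of BHLHE40. RefSeq windows from 250 bases before to 50 after the start (GRCm38.p6) were present for 68 of 77 members. Capitals mark matches, on either strand, to the E-box CACGTG, the GABP motif CCGGAAG, the palindromic NRF1 motif and the YY1 motif (10 bases each), and positions are counted from the start base as 0. No 2 of these motifs overlap in the windows below.
Mrps18b (chr17:35916391-35916690, minus strand): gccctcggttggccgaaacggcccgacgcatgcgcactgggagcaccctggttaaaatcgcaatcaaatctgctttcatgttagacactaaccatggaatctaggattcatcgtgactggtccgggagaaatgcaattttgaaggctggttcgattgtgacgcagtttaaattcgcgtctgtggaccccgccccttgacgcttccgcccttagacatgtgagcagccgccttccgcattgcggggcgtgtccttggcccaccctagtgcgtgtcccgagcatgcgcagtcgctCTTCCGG
Mrps27 (chr13:99344536-99344835, plus strand): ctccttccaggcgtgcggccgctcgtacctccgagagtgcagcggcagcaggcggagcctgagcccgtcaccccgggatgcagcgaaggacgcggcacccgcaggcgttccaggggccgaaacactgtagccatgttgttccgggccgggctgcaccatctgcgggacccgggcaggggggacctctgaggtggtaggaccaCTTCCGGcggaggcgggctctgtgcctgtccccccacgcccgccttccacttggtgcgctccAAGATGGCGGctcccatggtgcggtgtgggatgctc
Mrpl12 (chr11:120484387-120484686, plus strand): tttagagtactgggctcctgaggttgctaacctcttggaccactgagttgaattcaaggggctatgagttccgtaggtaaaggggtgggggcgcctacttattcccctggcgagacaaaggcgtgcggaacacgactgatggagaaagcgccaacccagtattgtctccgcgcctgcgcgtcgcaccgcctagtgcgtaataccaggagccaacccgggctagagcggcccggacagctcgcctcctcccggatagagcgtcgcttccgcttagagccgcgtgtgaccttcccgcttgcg
Mrpl27 (chr11:94653541-94653840, plus strand): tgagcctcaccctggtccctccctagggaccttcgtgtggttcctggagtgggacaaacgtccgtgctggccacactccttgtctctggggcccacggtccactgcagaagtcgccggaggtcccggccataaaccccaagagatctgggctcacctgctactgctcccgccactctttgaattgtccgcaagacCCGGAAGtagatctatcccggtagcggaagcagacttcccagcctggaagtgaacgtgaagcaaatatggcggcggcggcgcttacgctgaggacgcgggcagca
Mrps18c (chr5:100798509-100798808, plus strand): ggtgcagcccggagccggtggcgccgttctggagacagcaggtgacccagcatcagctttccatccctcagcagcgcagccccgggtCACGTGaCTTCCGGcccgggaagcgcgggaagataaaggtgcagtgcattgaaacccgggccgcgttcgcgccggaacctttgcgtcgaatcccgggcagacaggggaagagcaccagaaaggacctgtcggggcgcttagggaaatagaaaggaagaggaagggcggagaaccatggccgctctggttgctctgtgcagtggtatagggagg
Mrpl37 (chr4:107066817-107067116, minus strand): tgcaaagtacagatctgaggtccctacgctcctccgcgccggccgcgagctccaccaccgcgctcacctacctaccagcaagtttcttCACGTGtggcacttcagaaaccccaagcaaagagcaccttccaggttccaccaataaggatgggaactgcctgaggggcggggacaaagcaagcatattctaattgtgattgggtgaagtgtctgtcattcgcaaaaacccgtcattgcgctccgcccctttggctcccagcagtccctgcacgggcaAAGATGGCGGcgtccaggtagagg
In the deposited scaling, but not with equal library totals, LPS moved Mrps18b and Mrps27 in opposite directions under the 2 genotype labels. Mrps18b carries a GABP match at 43, and Mrps27 a GABP match at -48 and a YY1 match at 14. Mrpl12 carries none of the 4. Mrpl27 has a GABP match at -55. Mrps18c holds an E-box at -163 beside a GABP match at -156, and Mrpl37 an E-box at -162 and a YY1 match at 26.

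Over all members with a window, the GABP motif was found in 23 of 68 (33.8%), against 16.3% of the 12307 tested genes with a window. The window nearest the annotated gene start was taken for a member and the first listed for a tested gene, so the shares compare unlike choices. The windows of Mrpl33, Mrps24, Mrpl35 and Mrpl36 start 17016, 7979, 3185 and 2496 bases from the annotated gene start. The YY1 motif was found in 5 (7.35% against 1.83%) and the NRF1 motif in 3 (4.41% against 1.84%). The E-box was found in 5 members (7.35% against 9.73%), namely Mrpl2, Mrpl20, Mrpl36, Mrpl37 and Mrps18c. The SP1 motif GGGCGG, not capitalised above, was in 34 (50% against 60.2%), and median GC content was 58.2% against 60% in all tested windows. By the limma test described below, 3 of the 5 E-box members were called higher and 0 lower with LPS in BHLHE40-Fl, against 19 and 7 of the 63 members without an E-box. In Lyz2Cre the counts were 3 and 1, against 14 and 15, and between labels with LPS 1 and 1, against 16 and 7. The E-box members called higher with LPS were Mrpl20, Mrpl37 and Mrps18c, and with equal library totals they lost these calls under both labels. So did most other members called higher. Mrpl20 then changed sign under both labels, Mrps18c in BHLHE40-Fl and Mrpl37 in Lyz2Cre. Of all tested genes, 24.9% were higher and 25.6% lower with LPS in BHLHE40-Fl, and 25% and 23.9% in Lyz2Cre. Between labels with LPS, 17.7% were higher and 19.8% lower. The E-box counts were not tested. A match is a run of letters and shows no binding.

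The members were expressed well above most genes per unit of length. Their median level was 158 scaled reads per kilobase of exon, against 22.3 for all tested genes, as a mean over the 12 libraries. Mrpl54, a large-subunit protein without a bacterial counterpart, led with 826 per kilobase, followed by Mrpl24 (569), Mrpl34 (566) and Mrps21 (564), which have bacterial counterparts. Mrpl23 was lowest at 4.66 per kilobase. Among these leaders Mrpl24 had 1418, 1124 and 1168 scaled reads in BHLHE40-Fl with LPS, 1445, 1632 and 1647 in Lyz2Cre with LPS, 1071, 1259 and 1141 in BHLHE40-Fl controls and 1206, 1094 and 1201 in Lyz2Cre controls. Mrps21 had 360.5, 291 and 296, then 359.9, 439 and 456, then 502, 393 and 441, and 485, 440.2 and 536 in the same groups, with its lowest values in BHLHE40-Fl with LPS. Within a group the median coefficient of variation of a member was 8.43%. The mean value was under 100 scaled reads in 3 members (Mrpl23, Mrps36 and Mrps33), and their counts are the least precise.

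Together the members took 0.133% ± 0.0087 of the library total in BHLHE40-Fl with LPS and 0.110% ± 0.0018 in Lyz2Cre with LPS, against 0.171% ± 0.0035 in BHLHE40-Fl controls and 0.164% ± 0.0083 in Lyz2Cre controls (SD, n = 3). The shares with LPS did not overlap those of the controls under either label, nor did the shares under the 2 labels with LPS overlap. The shares of BHLHE40-Fl and Lyz2Cre controls overlapped. The summed values themselves, in the deposited scaling, ran the other way for LPS, at 41002 ± 2255 in BHLHE40-Fl with LPS and 41258 ± 1157 in Lyz2Cre with LPS, against 34291 ± 685 in BHLHE40-Fl controls and 37121 ± 1755 in Lyz2Cre controls. The direction of many members with LPS therefore depends on the scaling. Small-subunit values were 0.351 ± 0.0087 of large-subunit values in BHLHE40-Fl with LPS and 0.321 ± 0.0025 in Lyz2Cre with LPS, against 0.397 ± 0.0072 in BHLHE40-Fl controls and 0.378 ± 0.0020 in Lyz2Cre controls. This ratio of 2 sums within a library does not depend on the scaling, and it was lower in each LPS library than in each control library of its label. No exact permutation test of 3 libraries against 3 can go below a two-sided p of 0.1.

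**Figure D1:**
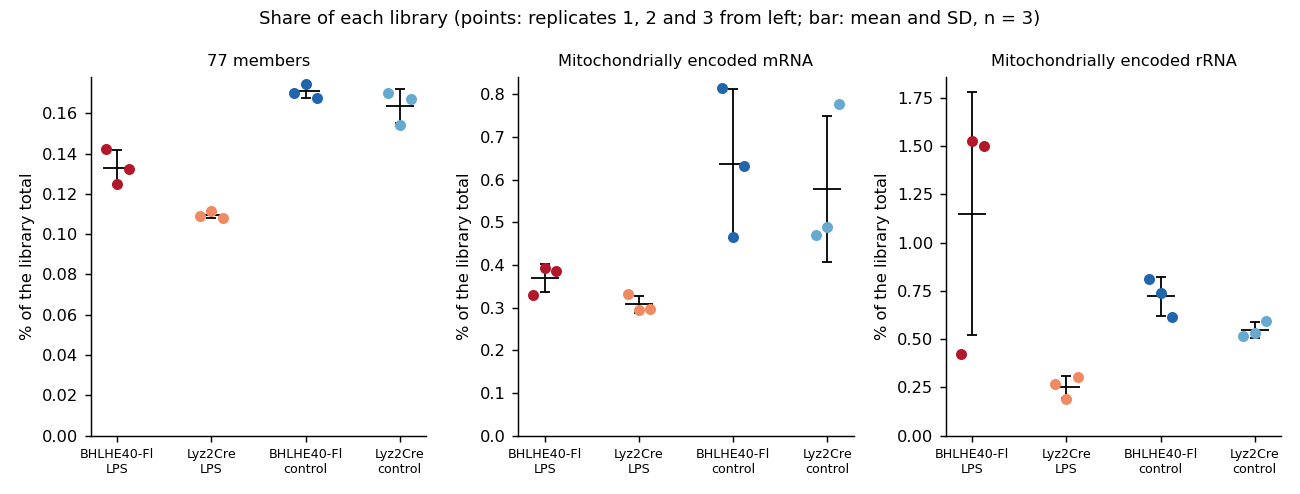
Share of each library's total taken by the 77 members (left), mitochondrially encoded mRNA (middle) and mitochondrially encoded rRNA (right), in percent, with a point per library and the mean and SD of 3 libraries. Of the 13 mRNA genes, 6 are listed at 0 in all libraries, so the middle panel is not the whole mitochondrial mRNA. The members took 0.125% to 0.142% in BHLHE40-Fl with LPS and 0.108% to 0.112% in Lyz2Cre with LPS, below the control libraries, and the rRNA share of BHLHE40-Fl LPS replicate 1 was 0.425% against 1.52% and 1.501% in replicates 2 and 3.

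With LPS, members were called about as often as all tested genes but less often than genes at their level. Their changes had a narrower spread. In BHLHE40-Fl, 28 members were called higher and 7 lower at a limma adjusted p under 0.05, 45.5% of the members against 50.5% of all tested genes (24.9% higher and 25.6% lower). In Lyz2Cre, 21 were called higher and 17 lower, 49.4% against 48.9% (25% higher and 23.9% lower). Among the 8059 tested genes with a mean value in the range of the members, 2249 were higher and 3170 lower in BHLHE40-Fl, and 2167 and 3254 in Lyz2Cre. Of these 8059, 2640 were not called in BHLHE40-Fl and 2638 in Lyz2Cre, against 42 and 39 of the 77 members. All 3 LPS libraries lay above all 3 controls for 31 members and below for 9 in BHLHE40-Fl (background 26.7% and 28.9%), and for 26 and 18 in Lyz2Cre (27.5% and 27%). Changes of at least 2-fold among called genes were found in 5 members in BHLHE40-Fl, where the background was 27.5%, and in 8 in Lyz2Cre, where it was 26.2%. The SD of the log2 changes over the members was 0.45 in BHLHE40-Fl and 0.55 in Lyz2Cre, against 1.51 and 1.33 over all genes.

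Equal library totals moved the LPS changes of all genes downward (medians by -0.51 in BHLHE40-Fl and -0.58 in Lyz2Cre). That the lower calls held there and most higher calls did not follows from this shift and does not make the lower calls firmer. The median log2 change of the members was 0.16 with LPS in BHLHE40-Fl, 0.22 above the median of all genes, and 0.06 with LPS in Lyz2Cre, 0.06 above it. With equal library totals the members stood 0.11 above the median of all genes in BHLHE40-Fl and 0.09 below it in Lyz2Cre (a difference of -0.09), with 4 higher and 50 lower in BHLHE40-Fl and 4 higher and 63 lower in Lyz2Cre. TMM scaling gave 25 higher and 10 lower in BHLHE40-Fl, and 15 and 25 in Lyz2Cre. Of the 35 calls in BHLHE40-Fl, 4 of 28 higher and 7 of 7 lower held in both scalings and 20 changed sign. Of the 38 in Lyz2Cre, 4 of 21 higher and 17 of 17 lower held and 15 changed sign. The 4 members higher in both scalings in BHLHE40-Fl were Mrpl13, Mrpl27, Mrpl30 and Mrpl52, and the 7 lower in both were Mrpl28, Mrpl34, Mrpl41, Mrpl42, Mrpl49, Mrpl51 and Mrps21.

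**Figure D2:**
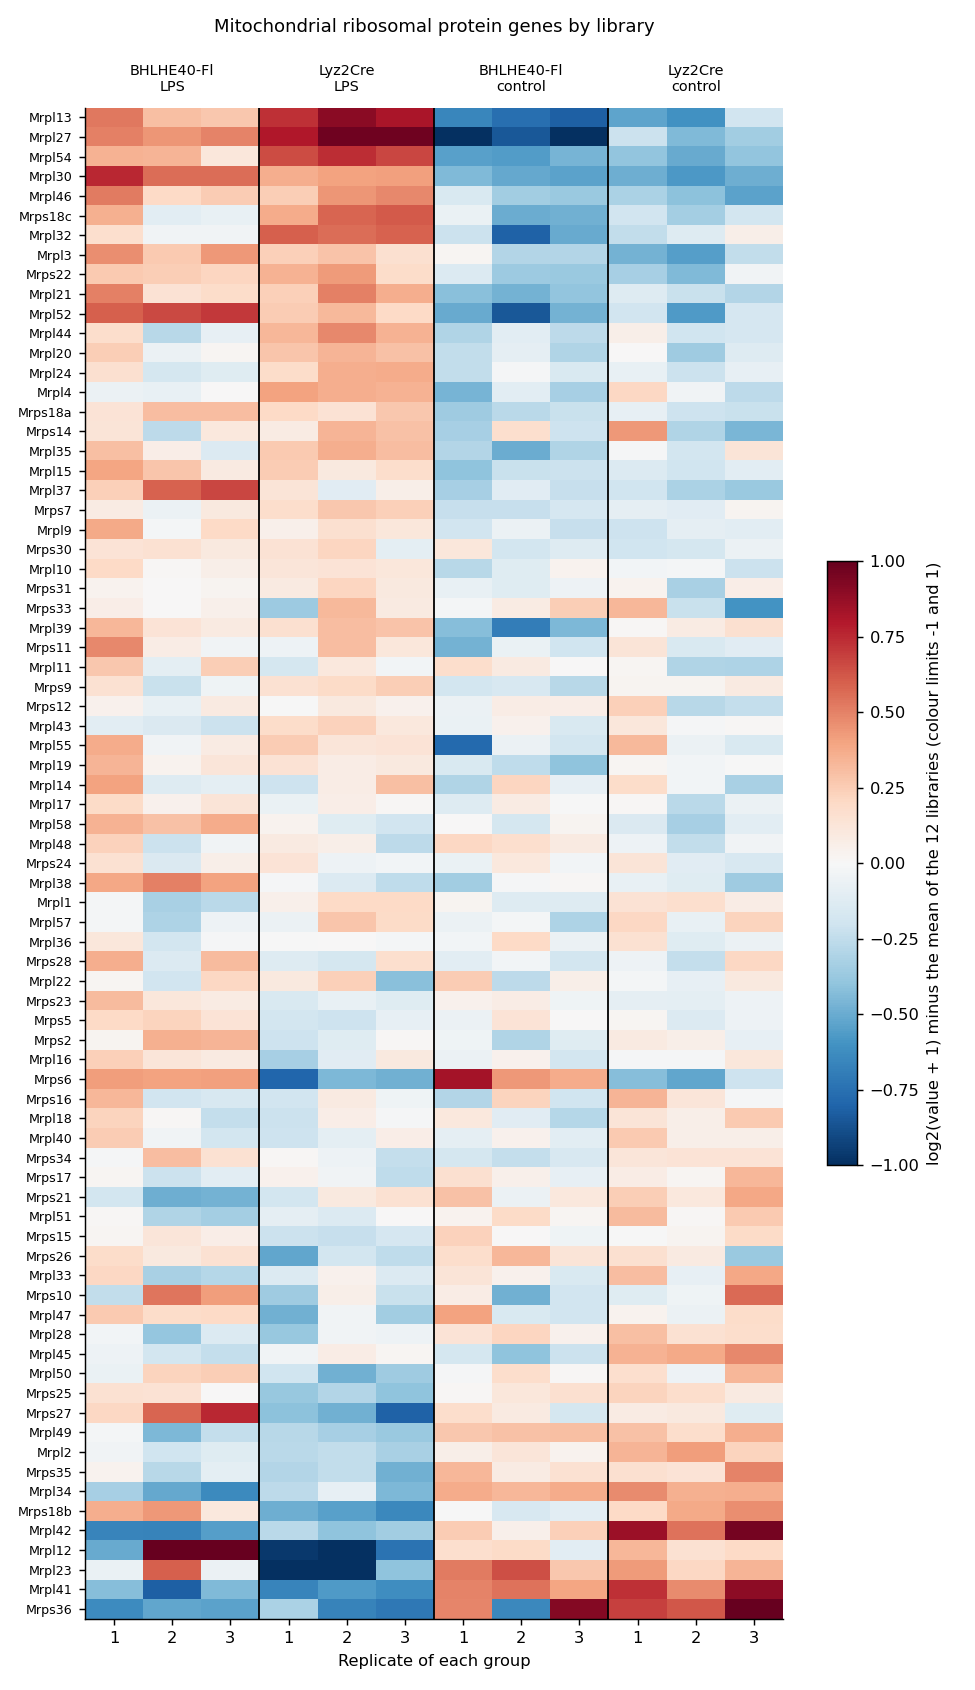
Heatmap of log2(value + 1) of each of the 77 members (rows, ordered by the LPS change in Lyz2Cre) in each of the 12 libraries (columns), minus the member's mean over the libraries, with colours capped at -1 and 1. Mrpl13, Mrpl27, Mrpl54 and Mrpl30 at the top are high in the 6 LPS libraries and Mrpl41 and Mrpl42 near the bottom are low, while Mrpl12 is high in 2 of the 3 BHLHE40-Fl LPS libraries.

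The largest rises were in the large subunit. Mrpl27 (chromosome 11, 94653767 to 94660089, plus strand, mm10), the counterpart of bacterial L27 that lies close to the peptidyl transferase centre, had 673, 644 and 669 scaled reads in BHLHE40-Fl with LPS, against 191, 262 and 231 in its controls, and 827, 929.7 and 928 in Lyz2Cre with LPS, against 408, 349 and 372 in its controls. No LPS library overlapped a control library, and the log2 change was 1.54 ± 0.11 in BHLHE40-Fl (SE, limma adjusted p = 1e-09) and 1.25 ± 0.11 in Lyz2Cre (limma adjusted p = 2e-08). Mrpl13, the counterpart of bacterial L13, an early-binding protein in bacterial assembly, had 1403, 1204 and 1175 in BHLHE40-Fl with LPS, against 619, 579 and 554 in controls, and 1617, 1824 and 1717 in Lyz2Cre with LPS, against 674, 639.6 and 852 in controls. Its log2 change was 1.11 in BHLHE40-Fl and 1.26 in Lyz2Cre (limma adjusted p = 4.68e-08 and 8.28e-09). Mrpl30 stood at 1706, 1487 and 1492 in BHLHE40-Fl with LPS, against 743, 709 and 696 in controls, and at 1303, 1338 and 1341 in Lyz2Cre with LPS, against 719.8, 678 and 718 in controls. It rose by 1.12 and 0.91 on the log2 scale. Mrpl52, a protein specific to mitochondria, was the 2nd in BHLHE40-Fl after Mrpl27, and had 849.7, 883 and 917 with LPS, against 394, 311 and 403 in controls, a log2 change of 1.26 (limma adjusted p = 3.64e-08). In Lyz2Cre it stood at 668, 699 and 644 with LPS, against 491, 377 and 499 in controls, a log2 change of 0.57 that became negative with equal library totals. Mrpl54 was the 3rd in Lyz2Cre, at 1009, 1068 and 1019 with LPS, against 486, 451 and 486 in controls (log2 change 1.12, limma adjusted p = 2.34e-09), and changed by 0.79 in BHLHE40-Fl.

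The largest falls were also in the large subunit and in Mrps36. Mrpl41, specific to mitochondria, had 198, 150.3 and 195 scaled reads in BHLHE40-Fl with LPS, against 375, 388 and 349 in controls, and 168, 179 and 173 in Lyz2Cre with LPS, against 442, 369.6 and 495 in controls. All 6 LPS libraries were below all 6 controls, and the log2 changes were -1.04 ± 0.13 and -1.31 ± 0.13 (SE, limma adjusted p = 2.09e-06 and 1.07e-07). Mrpl42, another mitochondria-specific protein, had 212, 210.1 and 228 in BHLHE40-Fl with LPS, against 398, 346 and 395 in controls, and 278, 252 and 263 in Lyz2Cre with LPS, against 607, 489 and 651 in controls (log2 change -0.81 and -1.13). Mrpl34, the counterpart of bacterial L34, had 263, 232 and 213 in BHLHE40-Fl with LPS, against 428, 417 and 429 in controls, and 275, 312 and 243 in Lyz2Cre with LPS, against 460.4, 425 and 425 in controls (-0.85 and -0.66). Neither gene overlapped between LPS and control libraries. Mrpl49, specific to mitochondria, had 426, 316 and 367 in BHLHE40-Fl with LPS, against 522, 529.7 and 532 in controls (log2 change -0.52), and changed by -0.60 in Lyz2Cre. In Lyz2Cre, Mrps36 fell to 25, 19.3 and 18.7 with LPS, against 50.8, 48.6 and 80.4 in controls (log2 change -1.44, limma adjusted p = 0.00227). In BHLHE40-Fl it stood at 19.9, 21.5 and 21.3, against 44.3, 19.7 and 60.1 in controls, which overlap (log2 change -0.82, limma adjusted p = 0.0642). Mrpl23 fell in Lyz2Cre to 8.3, 8.3 and 15.6, against 28.5, 24.3 and 26.8 in controls (log2 change -1.28, limma adjusted p = 0.00363), at the lowest counts of any member.

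**Figure D3:**
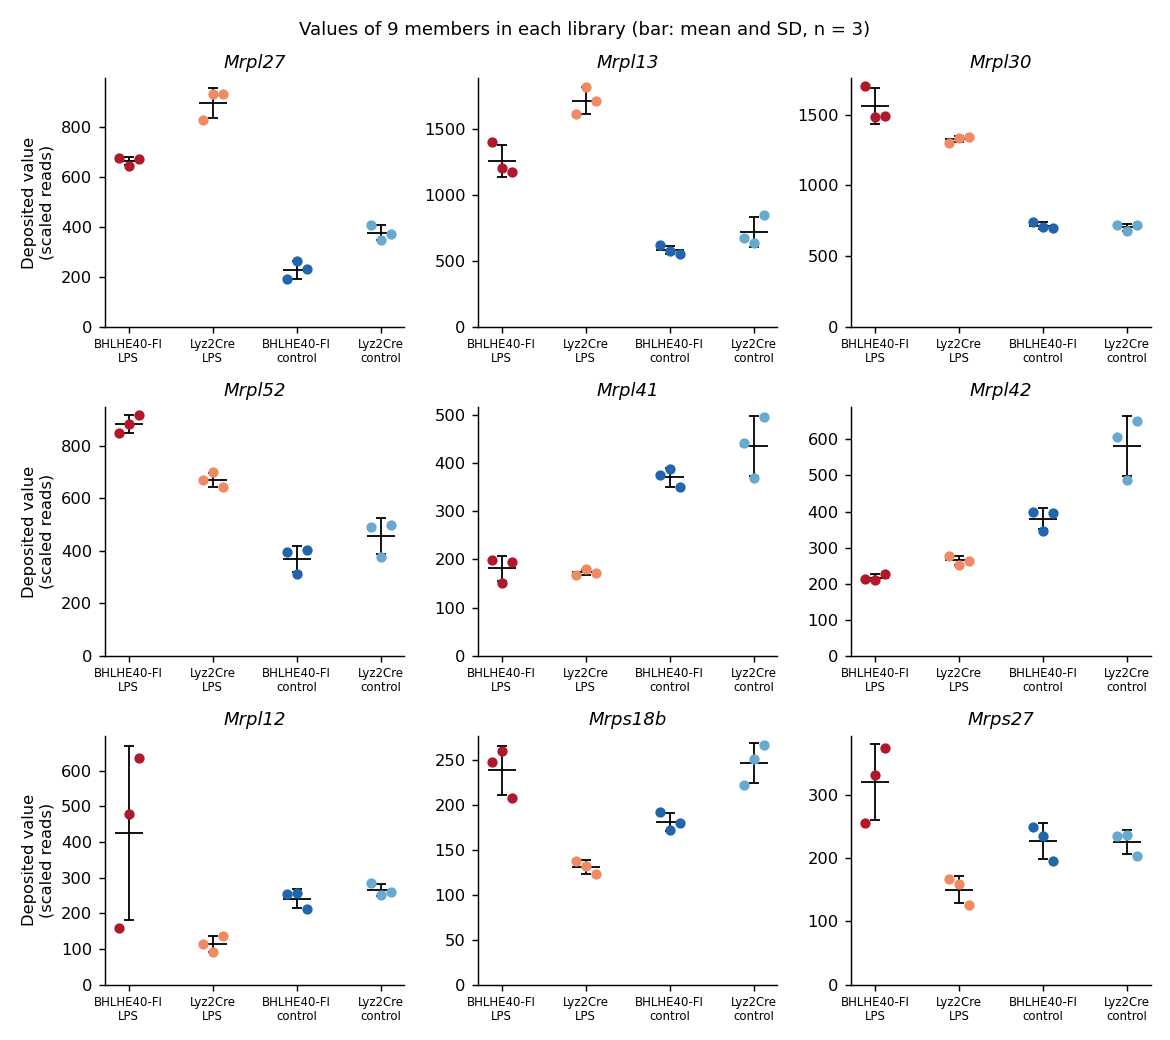
Deposited values (reads scaled by 1 factor per library, linear axes from 0) of 9 members in each library, with a point per library and the mean and SD of 3 libraries per group. Mrpl27, Mrpl13 and Mrpl30 are high and Mrpl41 and Mrpl42 low in both LPS groups, and Mrpl12, Mrps18b and Mrps27 are higher in BHLHE40-Fl with LPS than in Lyz2Cre with LPS, with Mrpl12 at 159, 479.9 and 636 in BHLHE40-Fl LPS replicates 1, 2 and 3.

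The bS18 family has 3 copies. Mrps18a, which sits in the large subunit, had 829, 931 and 932 in BHLHE40-Fl with LPS, against 589.6, 624 and 644 in controls, and 864, 832 and 908 in Lyz2Cre with LPS, against 710.5, 652 and 645 in controls. It was called higher under both labels (log2 change 0.53 and 0.38, limma adjusted p = 1.8e-05 and 0.000657), but with equal library totals the changes were -0.085 and -0.35. Mrps18c, of the small subunit, had 478, 346 and 354 in BHLHE40-Fl with LPS, against 356, 264 and 267 in controls, which overlap, and 482, 559 and 571 in Lyz2Cre with LPS, against 326, 294 and 327 in controls, which do not. Its log2 changes were 0.41 and 0.76 (0.036 with equal library totals for the second), and the first became -0.21 with equal library totals and lost its call without BHLHE40-Fl LPS replicate 1 (limma adjusted p = 0.121) or without BHLHE40-Fl control replicate 2 or 3 (0.0846 and 0.0863). Mrps18b, also of the small subunit, had 248, 261 and 208 in BHLHE40-Fl with LPS, against 193, 173 and 179.7 in controls, and 138, 132 and 123 in Lyz2Cre with LPS, against 222, 251 and 267 in controls. It was thus higher with LPS in BHLHE40-Fl (log2 change 0.39, limma adjusted p = 0.0158) and lower with LPS in Lyz2Cre (-0.91, limma adjusted p = 7.73e-06). The change in BHLHE40-Fl became -0.23 with equal library totals and lost its call without BHLHE40-Fl LPS replicate 2 or BHLHE40-Fl control replicate 2 (limma adjusted p = 0.0738 and 0.0521), while that in Lyz2Cre kept its sign and call.

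Counts were also taken by subunit and by evolutionary origin. With LPS in Lyz2Cre, 18 of 50 large-subunit members were called higher and 11 lower (median log2 change 0.11), and 3 of 26 small-subunit members higher and 5 lower (median -0.12). In BHLHE40-Fl, 20 large-subunit members were called higher and 6 lower (median 0.20), and 8 small-subunit members higher and 1 lower (median 0.13). The difference between the subunits was not tested. Among members with a bacterial counterpart, 14 of 46 were called higher and 6 lower in Lyz2Cre, and 16 and 3 in BHLHE40-Fl. Among the mitochondria-specific ones, 7 of 30 were called higher and 10 lower in Lyz2Cre, and 12 and 4 in BHLHE40-Fl. Mrps18a and Mrps18b were counted there although they belong to the bS18 family, and Mrps18c was counted with the bacterial counterparts.

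Members that start beside another gene did not always move with it. Of 31 members with a tested partner on the opposite strand, 11 were called with LPS together with the partner in BHLHE40-Fl, 9 of them in the same direction. In Lyz2Cre this held for 13 members, 9 of them in the same direction. Mrpl46 and Mrps11 are partners of each other and are each counted, both in the 31 and in the BHLHE40-Fl counts. The same counts over neighbouring genes in general were not made. Mrpl30 and its partner Mitd1, an abscission factor gene, had log2 changes of 1.12 and 3.70 in BHLHE40-Fl and of 0.91 and 2.93 in Lyz2Cre. Mrpl13 and Mtbp, which overlap, had 1.11 and 1.20, and 1.26 and 1.46. Mrpl32 and the proteasome subunit gene Psma2 had 0.54 and 1.14, and 0.68 and 1.13, of which both values of Mrpl32 became negative with equal library totals (-0.074 and -0.043). Mrpl37 and Cyb5rl had 0.72 and -1.47, and 0.32 and -1.94, where the 0.32 of Mrpl37 became -0.41, and Mrpl54 and Apba3 had 0.79 and -0.59, and 1.12 and -0.20.

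Most members called under both labels had the same direction. In both, 18 members were called higher and 6 lower, and 30 were called in neither. In the deposited scaling, but not with equal library totals, 2 (Mrps18b and Mrps27) were called in opposite directions. The 18 are 64.3% of the members higher in BHLHE40-Fl and 85.7% of those higher in Lyz2Cre. The same joint counts over all tested genes were not made, so agreement beyond that of genes in general is not shown. Of the 18, only Mrpl13, Mrpl27 and Mrpl30 kept their calls under both labels with equal library totals. The 6 lower ones kept theirs, in the direction in which that scaling moved all genes. Across the 77 genes, which are not independent replicates, Pearson's r was 0.72 and Spearman's rho 0.66, and across all tested genes r was 0.80. A further 9 members were called lower in Lyz2Cre only, and 8 higher in BHLHE40-Fl only, but a call under 1 label alone does not show a difference between them.

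The difference itself was called for 12 members, 15.6% against 18.8% of all tested genes, with 3 members and 7.4% of genes also at least 2-fold, and in each of the 12 the LPS change was more positive in BHLHE40-Fl. The background was 9.52% for that direction and 9.31% for the other, in which 0 members were called by limma (20 members in either direction had an unadjusted p under 0.05, and 0 were called lower by edgeR and by DESeq2). Of the 8059 tested genes with a mean value in the range of the members, 1049 were called in the positive direction and 873 in the negative. All 12 were called in the same direction with equal library totals, which raised the interaction median of all genes by 0.09. That shift favours positive calls, so it is not a separate check of them. With quantile normalization 8 members were called higher and 1 lower. Without BHLHE40-Fl LPS replicate 1, 14 were called higher and 3 lower (Mrpl24, Mrpl44 and Mrpl54). Of the 12, 9 are among the 30 members counted as mitochondria-specific (with Mrps18b of the bS18 family) and 3 among the 46 with a bacterial counterpart. By subunit, 7 are large-subunit and 5 small-subunit members. The median difference was 0.12 over the members and -0.03 over all genes.

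**Figure D4:**
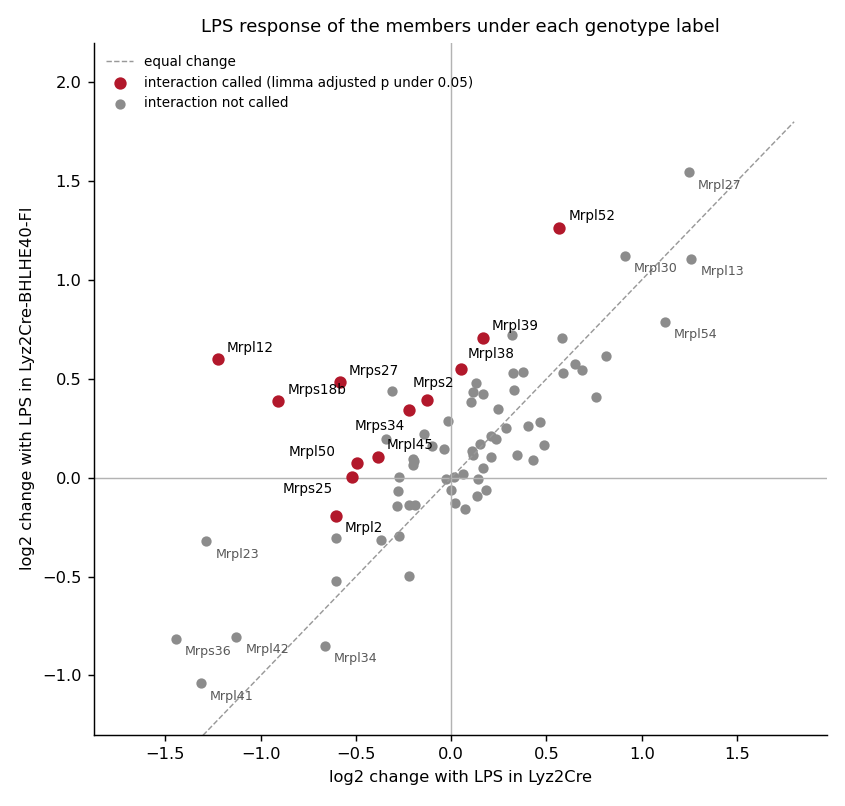
Log2 change with LPS in BHLHE40-Fl (vertical axis) against that in Lyz2Cre (horizontal axis), on the log2(value + 1) scale, for the 77 members, with the 12 members whose 2 changes differed (limma adjusted p under 0.05) in red and the line of equal change dashed. The 12 lie above the line, with Mrpl12, Mrps18b and Mrps27 farthest from it at 1.82, 1.29 and 1.07, and Mrpl52 is the one among them with the largest change in BHLHE40-Fl (1.26).

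Mrpl12 had the largest interaction, and the replicates of a group disagreed on its size. Its protein forms the flexible stalk of the large subunit and in human cells is also known to bind mitochondrial RNA polymerase. Mrpl12 (chromosome 11, 120484613 to 120489065, plus strand, mm10) had 159, 479.9 and 636 scaled reads in BHLHE40-Fl with LPS, against 115, 92.4 and 135 in Lyz2Cre with LPS, and 255, 258 and 211 in BHLHE40-Fl controls, against 285, 251 and 260.5 in Lyz2Cre controls. Each BHLHE40-Fl LPS library was above each Lyz2Cre LPS library, while replicate 1 was below and replicates 2 and 3 above the BHLHE40-Fl controls. With LPS the genotype difference was 1.68 ± 0.33 on the log2 scale (SE, limma adjusted p = 0.000502), a 3.72-fold ratio of the group means, and the interaction 1.82 ± 0.46 (limma adjusted p = 0.00916). Mrpl12 fell with LPS in Lyz2Cre (log2 change -1.22, limma adjusted p = 0.00448), and in BHLHE40-Fl the change of 0.60, -0.016 with equal library totals, was not called (limma adjusted p = 0.141). Without BHLHE40-Fl LPS replicate 1 that change was 1.20 and was called (limma adjusted p = 1.54e-05), and the interaction was 2.42 (limma adjusted p = 1.12e-06). The genotype difference with LPS was not called when the 2 compared groups were fitted alone (limma adjusted p = 0.0534), nor the interaction with robust variances (limma adjusted p = 0.0803).

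The same library stood apart in other genes of mitochondrial gene expression. In BHLHE40-Fl with LPS, mt-Rnr2 was at 122342 in replicate 1 and at 436733 and 419986 in replicates 2 and 3, and mt-Rnr1 at 7879.8, 42348 and 36849.6. Myc had 165, 279 and 347 in these libraries, and Pprc1, a PGC-1 family coactivator, 698, 1101 and 1081. Replicate 1 was lowest for these 4 genes. Among the members with a called interaction it was lowest for Mrpl12, Mrps27, Mrpl52, Mrpl50, Mrps34, Mrps2 and Mrpl38. Of the 77 members, however, replicate 1 was the highest of the 3 in 55 and the lowest in 13, with a median ratio to the mean of the other two of 1.12, and of 0.285 for Mrpl12. What sets this library apart was not tested.

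Mrps18b and Mrps27 were called in opposite directions by LPS under the 2 labels in the deposited scaling. With equal library totals the changes of both were negative under both labels. Mrps27, a mitochondria-specific small-subunit protein with pentatricopeptide repeats that can bind RNA, had 256, 331 and 374 in BHLHE40-Fl with LPS, against 167, 159 and 126 in Lyz2Cre with LPS, and 250.1, 235 and 196 in BHLHE40-Fl controls, against 235, 238 and 204 in Lyz2Cre controls. The LPS groups did not overlap and the control groups did. The genotype difference with LPS was 1.08 ± 0.15 (SE, limma adjusted p = 2.13e-05), and the interaction 1.07 ± 0.22 (limma adjusted p = 0.00166). With LPS Mrps27 changed by 0.48 in BHLHE40-Fl and -0.59 in Lyz2Cre (limma adjusted p = 0.0135 and 0.0038), and the first became negative with equal library totals. Mrps18b differed between labels by 0.86 with LPS (limma adjusted p = 3.03e-05) and by -0.44 in controls (limma adjusted p = 0.0121), which gave an interaction of 1.29 ± 0.18 (limma adjusted p = 3.89e-05). The call in controls was lost without Lyz2Cre control replicate 3 (limma adjusted p = 0.0528). The adjoining gene Ppp1r10 changed with LPS by 0.28 in BHLHE40-Fl and 0.33 in Lyz2Cre, and Ptcd2, beside Mrps27, by -0.18 and -0.31. Each neighbour thus had values of the same sign under both labels, which were -0.34 and -0.40 for Ppp1r10 with equal library totals.

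The other 9 interactions were smaller. Mrpl52 had an interaction of 0.70 (limma adjusted p = 0.00506), with the LPS libraries at 849.7, 883 and 917 in BHLHE40-Fl against 668, 699 and 644 in Lyz2Cre. Mrpl39 and Mrpl45 were lower in BHLHE40-Fl controls and closer between labels with LPS. Mrpl39 had 1058, 923 and 897 in BHLHE40-Fl with LPS, against 941, 1043 and 1022 in Lyz2Cre with LPS, and 625, 520.3 and 615 in BHLHE40-Fl controls, against 848, 892 and 937 in Lyz2Cre controls (interaction 0.54, limma adjusted p = 0.00544). Mrpl45, which anchors the ribosome to the inner membrane in mammals, had 799, 728 and 700.0, against 804, 868 and 837 with LPS, and 731, 626 and 712, against 1049, 1072 and 1154 in controls (interaction 0.49, limma adjusted p = 0.00587). With LPS the labels overlapped for Mrpl39 and did not for Mrpl45.

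Mrps25 and Mrps34 of the small subunit share most of their sequence with a neighbouring gene. Mrps25 had 484, 483 and 437 in BHLHE40-Fl with LPS, against 335, 356 and 329.7 in Lyz2Cre with LPS, and 439.8, 471 and 488 in BHLHE40-Fl controls, against 510.4, 493 and 465 in Lyz2Cre controls (interaction 0.53). Mrps34 had 269, 336 and 300.5, against 274, 262 and 230.2 with LPS, and 239.9, 229.7 and 242, against 296, 298 and 298 in controls (0.56). In Mrps25 the labels separated with LPS and overlapped in controls, and in Mrps34 the reverse held. Mrpl50, specific to mitochondria, had 403, 492 and 498 in BHLHE40-Fl with LPS, against 367, 302 and 329.7 in Lyz2Cre with LPS, and 417, 475 and 425 in BHLHE40-Fl controls, against 473, 407 and 531 in Lyz2Cre controls (0.57). Mrps2, the counterpart of bacterial S2, had 466, 586 and 579, against 397, 421 and 460.4 with LPS, and 445, 371 and 420.3, against 487, 477 and 433 in controls (0.52). Both separated between labels with LPS and overlapped in controls. Mrpl38, specific to mitochondria, had 661, 718 and 669, against 500.2, 458 and 423 with LPS, and 397, 501 and 508, against 478, 464 and 394 in controls (0.50). Mrpl2, the counterpart of bacterial L2, which helps to join the subunits, had 478, 428 and 449.6, against 406, 414 and 392 with LPS, and 512, 534 and 503, against 620.5, 654 and 571 in controls (0.41). The values of Mrpl2 under the BHLHE40-Fl label lay above those of Lyz2Cre with LPS and below them in controls, with no overlap in either. Each of these last 4 lost its call with quantile normalization and without 1 or more single libraries. Without Lyz2Cre LPS replicate 3, for instance, Mrpl38 had a limma adjusted p of 0.0864 and Mrpl2 of 0.0515, and without BHLHE40-Fl LPS replicate 2 Mrpl50 had 0.0605 and Mrps2 0.0636.

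With LPS, 18 members were higher and 11 lower in BHLHE40-Fl than in Lyz2Cre, 37.7% of the members against 37.4% of all tested genes. The backgrounds were 17.7% higher and 19.8% lower, and the median difference was 0.04 over the members and -0.02 over all genes. Of the 8059 tested genes with a mean value in the range of the members, 2161 were higher and 1857 lower. The groups did not overlap for 19 members higher (background 21.4%) and 15 lower (24.6%). With equal library totals the members were 0.10 above the median of all genes, 37 were called higher and 0 lower. The 18 higher calls held and the 11 lower ones were lost, in the direction in which that scaling moved all genes (median by 0.24). After Mrpl12 came Mrpl23, with 19.9, 32.2 and 20 in BHLHE40-Fl with LPS, against 8.3, 8.3 and 15.6 in Lyz2Cre with LPS (log2 difference 1.11, limma adjusted p = 0.0134). That call was lost without BHLHE40-Fl LPS replicate 2 (limma adjusted p = 0.0731) or Lyz2Cre LPS replicate 2 (0.0506). Lower members included Mrpl32, with 578, 499.9 and 501 against 779.5, 756 and 771 (log2 difference -0.55, limma adjusted p = 0.00191), and Mrpl44, an RNase III-like protein, with 747, 544 and 624 against 829.5, 920.0 and 838 (-0.44, limma adjusted p = 0.00339). Mrps18c, at 478, 346 and 354 against 482, 559 and 571, and Mrpl13, at 1403, 1204 and 1175 against 1617, 1824 and 1717, differed by -0.46 and -0.45. The call of Mrps18c was lost without BHLHE40-Fl LPS replicate 2 or 3 or Lyz2Cre LPS replicate 3 (limma adjusted p = 0.0671, 0.0626 and 0.0568). By subunit, 9 of 26 small-subunit members were higher and 2 lower, and 9 of 50 large-subunit members were higher and 9 lower.

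In controls 13 members (16.9%) differed between labels, against 31.6% of all tested genes. Only Mrps6 was higher, against a background of 15%, and 12 were lower, against 16.6%. Of the 8059 tested genes with a mean value in the range of the members, 1519 were higher and 1525 lower. The groups did not overlap for 3 members higher (background 20.4%) and 17 lower (20.9%). Mrps6, the counterpart of bacterial S6, had 174, 173 and 174 in BHLHE40-Fl with LPS, against 75, 95.2 and 93.3 in Lyz2Cre with LPS, and 233, 177 and 169.6 in BHLHE40-Fl controls, against 97, 90.8 and 113 in Lyz2Cre controls. It was higher under the BHLHE40-Fl label with LPS (log2 difference 0.99, limma adjusted p = 8.49e-05) and in controls (0.93, limma adjusted p = 0.000161) (interaction 0.05 ± 0.23, SE, limma adjusted p = 0.909). It overlaps Slc5a3 on the same strand, shares 17.3% of its sequence with other genes, and differs in the same direction as the mesothelial and stromal markers, whose part was not tested. Mrpl27 was the lowest of the 12, at 191, 262 and 231 in BHLHE40-Fl controls against 408, 349 and 372 in Lyz2Cre controls (log2 difference -0.73, limma adjusted p = 3.74e-05), followed by Mrpl45 (-0.66), Mrpl42 (-0.61) and Mrpl39 (-0.61). With equal library totals 11 members were called higher and 4 lower (median 0.085, against -0.09 as deposited), and with quantile normalization 6 higher and 5 lower. Mrps6 and these 4 were called with equal library totals too, and the 8 other calls were lost there. The count of 12 fell to 7 without Lyz2Cre control replicate 1 and to 6 without Lyz2Cre control replicate 3, with 2 members higher in each case.

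**Figure D5:**
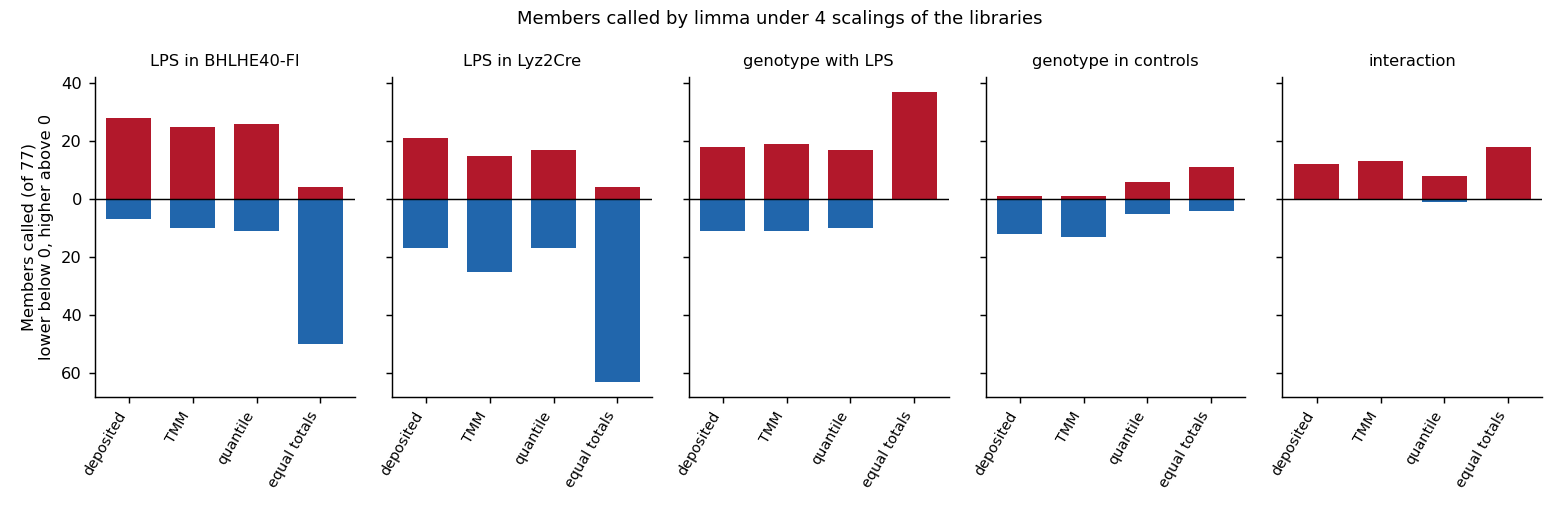
Number of the 77 members called higher (red, above 0) and lower (blue, below 0) by limma in the 5 comparisons, under the deposited scaling, TMM scaling, quantile normalization and equal library totals. For LPS in BHLHE40-Fl the counts are 28 higher and 7 lower as deposited and 4 and 50 with equal totals. For the interaction they are 12 and 0 as deposited and 8 and 1 with quantile normalization. They are 18 and 0 with equal totals, which raised the interaction median of all genes by 0.09.

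Genes that work with the members were counted from lists of the same machinery. A list of 6 tested genes outside the member names held subunit genes such as Dap3 of the small subunit. It also held Oxa1l, an inner membrane insertase that docks the ribosome and is not a subunit. With LPS, 1 was higher and 1 lower in BHLHE40-Fl, and 0 and 2 in Lyz2Cre. The lower calls were Oxa1l under both labels (log2 change -0.28 in BHLHE40-Fl and -0.41 in Lyz2Cre) and Dap3 in Lyz2Cre (-0.27). Dap3 differed between labels in its LPS response (interaction 0.57, limma adjusted p = 0.00351), at 640.2, 526 and 558 in BHLHE40-Fl with LPS, against 559, 618 and 600.3 in Lyz2Cre with LPS, and 444, 493 and 458 in BHLHE40-Fl controls, against 727, 677 and 741 in Lyz2Cre controls. Its LPS change in BHLHE40-Fl was 0.30 as deposited and -0.32 with equal library totals. Of 26 assembly and rRNA modification genes, 6 were higher and 8 lower with LPS in BHLHE40-Fl, and 4 and 10 in Lyz2Cre, with median log2 changes of -0.11 and -0.084 against -0.05 and 0 over all genes. The rRNA methyltransferase gene Mrm1 changed by -1.25 and -1.43 and the small-subunit assembly factor gene Rbfa by -1.16 and -1.11, while Eral1, which chaperones the 12S rRNA, changed by 0.96 and 0.81.

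Translation factors and tRNA synthetases had more lower than higher calls with LPS, as did the genes at the level of the members counted above. Of all tested genes, 25.6% were lower with LPS in BHLHE40-Fl and 23.9% in Lyz2Cre. Of 12 translation factor genes, 2 were higher and 5 lower in BHLHE40-Fl and 1 and 5 in Lyz2Cre, with median log2 changes of -0.22 and -0.39, and Guf1 at -0.71 and -0.78. For the interaction, 0 of these 12 were called higher and 2 lower (background 9.52% and 9.31%). Of 20 genes of mitochondrial tRNA charging, 2 were higher and 9 lower in BHLHE40-Fl and 0 and 11 in Lyz2Cre, with medians of -0.24 and -0.38. With LPS, 11 of these 20 were higher and 2 lower in BHLHE40-Fl than in Lyz2Cre (background 17.7% and 19.8%), and 4 had a called interaction, all positive (Mars2 1.13, Nars2 0.90, Qrsl1 0.79 and Aars2 0.64; background 9.52%). The interaction calls of Mars2, Qrsl1 and Aars2 were lost with quantile normalization and without any of several single libraries, with a limma adjusted p of 0.0738 for Mars2 and 0.0743 for Qrsl1 without BHLHE40-Fl LPS replicate 1 and of 0.0561 for Aars2 without BHLHE40-Fl LPS replicate 2. Mars2, the methionyl-tRNA synthetase gene, had 129.9, 88.9 and 118 in BHLHE40-Fl with LPS, against 52.8, 23.4 and 54.4 in Lyz2Cre with LPS, and 228, 245 and 233 in BHLHE40-Fl controls, against 194, 218 and 168 in Lyz2Cre controls. Each BHLHE40-Fl LPS library was above each Lyz2Cre LPS library.

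Of 13 genes of mitochondrial DNA transcription and RNA handling, 6 were higher and 4 lower with LPS in BHLHE40-Fl and 7 and 5 in Lyz2Cre (median 0.26 and 0.20). Pnpt1, an interferon-inducible RNA exonuclease gene, had 5702, 4795 and 4826 in BHLHE40-Fl with LPS, against 1098, 769 and 805 in controls, and 5399.7, 5966 and 5546 in Lyz2Cre with LPS, against 935, 1078 and 961 in controls (log2 change 2.53 and 2.51). The replicative helicase gene Twnk, which starts beside Mrpl43, fell by 1.84 and by 1.72, while Mrpl43 changed by -0.09 and 0.14. Both mitochondrial rRNAs were called higher with LPS in BHLHE40-Fl and not in Lyz2Cre, and both had a called interaction (1.94 for mt-Rnr1 and 1.46 for mt-Rnr2, limma adjusted p = 0.0274 and 0.0356). In BHLHE40-Fl their summed value was 130222, 479081 and 456836 with LPS, against 165548, 146895 and 122562 in controls, so replicates 2 and 3 lay above the controls and replicate 1 within them, and the rRNA share of replicate 1 (0.425%) was below the controls (0.614% to 0.812%). Without BHLHE40-Fl LPS replicate 2 or 3 both LPS calls were lost (limma adjusted p = 0.0728 and 0.065 for mt-Rnr1, 0.0842 and 0.0807 for mt-Rnr2), as were both interaction calls, and the LPS calls were also lost with equal library totals. Of 13 mitochondrial mRNA genes, 6 are listed at 0 in all libraries, and of the 7 tested 1 was higher with LPS in BHLHE40-Fl (mt-Nd6, 1.12) and 2 were lower in Lyz2Cre (mt-Nd1 and mt-Cytb, both -0.54), calls that were lost without Lyz2Cre LPS replicate 2 or Lyz2Cre control replicate 3 (limma adjusted p = 0.133 and 0.233 for mt-Nd1, 0.0966 and 0.0835 for mt-Cytb).

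Known regulators of this machinery were counted as well. Of 9, 6 were higher and 2 lower with LPS in BHLHE40-Fl and 4 and 5 in Lyz2Cre (median 0.52 and -0.32), and 5 had a called interaction, where 50.5%, 48.9% and 18.8% of all tested genes were called. Pprc1 had 698, 1101 and 1081 in BHLHE40-Fl with LPS, against 254, 208 and 263 in Lyz2Cre with LPS, and 373, 463 and 383 in BHLHE40-Fl controls, against 439.6, 458 and 311 in Lyz2Cre controls (interaction 1.94, limma adjusted p = 1.42e-05). Myc had 165, 279 and 347, against 107, 86.9 and 66.9 with LPS, and 156, 130.3 and 154, against 138, 182 and 133 in controls (interaction 1.58, limma adjusted p = 0.00199). Like Mrpl12, these were higher with LPS in BHLHE40-Fl than in Lyz2Cre and were not called between labels in controls. Tfam, the mitochondrial transcription factor gene, rose by 1.12 and 1.20, and no call was made between labels with LPS or in controls (limma adjusted p = 0.713 and 0.862). Ppargc1a stood at 5.9, 9.2 and 10 in BHLHE40-Fl with LPS, against 4.2, 5.5 and 6.2 in Lyz2Cre with LPS, and at 100.3, 88.4 and 93.5 in BHLHE40-Fl controls, against 18.5, 29.2 and 14.2 in Lyz2Cre controls. Nrf1 changed by 0.52 and 0.84 with LPS and Gabpa by 0.39 and 0.82, of which both changes in BHLHE40-Fl became negative with equal library totals (-0.10 and -0.23), and Yy1 changed by -0.27 and -0.32.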

How the data were processed

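Illumina libraries were prepared from total RNA, per the labels' protocols. STAR, Cufflinks, Cuffdiff and mm10 are named in the submitters' processing notes, without roles. The deposited values are a signal: each gene's whole reads over a library factor, given to 1 decimal, as judged from the values. With a tolerance of 0.06, 99.98% to 100% of the values of a library came out whole (100% under 500 reads), and a count test (edgeR) on the recovered reads called 10131, 9801, 6999, 6824 and 3768 genes in the 5 comparisons below, in their order. The test was planned for a normalized unit that the labels did not give, and it was kept for these values.

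The tested set (20419 genes) needed a value of 1 or more in 3 or more libraries. limma 3.58.1 (R 4.3.3) with a trend took log2(value + 1) of the 12 libraries, with a mean for each group, a scale that understates changes of low genes. The 5 comparisons were LPS in BHLHE40-Fl, LPS in Lyz2Cre, genotype with LPS, genotype in controls, and the interaction (LPS change in BHLHE40-Fl minus that in Lyz2Cre). A gene was called at a Benjamini-Hochberg adjusted p-value under 0.05 over all genes tested, and folds are ratios of group means. limma was tested on simulated reads with known changes.

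Values per library are given for up to 4 members per direction and comparison with the largest called differences and no overlap between groups (all called members for the interaction), the 4 highest per length, the Mrps18 genes and Mrpl12, and for up to 4 genes of each companion list. Mrpl37 and the named neighbours were added after their values were seen. The members and lists were chosen with earlier results of these data known. Of 53465 identifiers, 53274 were in GENCODE M21 (mm10), which gave positions, lengths and shared sequence, and promoter windows came from RefSeq (GRCm38.p6). Replicates differed by more than read sampling noise (chi-square per degree of freedom 7.35 to 72.2), so none was counted as a repeat of another. This measure was 33.5 to 72.2 in BHLHE40-Fl with LPS and 7.35 to 10.9 in Lyz2Cre with LPS, while the fit gave the 4 groups 1 shared spread. As alternatives the pseudocount was set to 0.1 or to 5, the filter dropped or raised to 5, and the fit repeated with equal library totals, TMM scaling, quantile normalization, robust variances, only the 2 groups of a comparison, replicate numbers as blocks, edgeR 4.0.16 and DESeq2 1.42.0 on recovered reads, and without each library. Python 3.11.15 with pandas 2.3.3 was used for counts and summaries.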

Additional observations from a re-analysis of the deposited data

Results flagged for a closer look

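The results below were marked because the LPS response differed between the genotype labels by a test of the difference itself, the limma interaction term adjusted over all genes tested. Values are log2 differences, the LPS change in BHLHE40-Fl minus that in Lyz2Cre. Among the members the value was 1.82 for Mrpl12 (0.60 against -1.22), 1.295 for Mrps18b (0.39 against -0.91), 1.07 for Mrps27 (0.48 against -0.59) and 0.70 for Mrpl52 (1.26 against 0.57). With equal library totals the positive changes of Mrpl12, Mrps18b and Mrps27 in BHLHE40-Fl and of Mrpl52 in Lyz2Cre became negative. The interactions kept their sign and call, but that scaling raised the interaction median of all genes by 0.09, which favours positive calls. It was 0.57 for Mrpl50, 0.56 for Mrps34, 0.54 for Mrpl39, 0.53 for Mrps25, 0.52 for Mrps2, 0.50 for Mrpl38, 0.49 for Mrpl45 and 0.41 for Mrpl2. All 12 are positive, against a background of 9.52% of tested genes called in that direction. Of the 8059 tested genes with a mean value in the range of the members, 1049 were called positive and 873 negative. For Mrpl12 the 3 BHLHE40-Fl LPS libraries had 159, 479.9 and 636 scaled reads.

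Among the regulators of mitochondrial biogenesis the value was 1.94 for Pprc1, 1.66 for Ppargc1b and 1.58 for Myc, and -0.43 for Gabpa and -1.64 for Ppargc1a. The call of Ppargc1a was lost with edgeR (adjusted p = 0.114) and DESeq2 (adjusted p = 0.0838) on the recovered reads, among other settings. The range of limma adjusted p over the alternatives was 1.12e-06 to 0.0803 for Mrpl12.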

How the results depend on the processing

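All called results of the members, and those of the companion genes and neighbours named in the text, were followed, 220 in all. Of their 5254 values under 24 alternatives, 4874 kept direction and call, 339 kept direction and lost the call and 41 reversed, all 41 with equal library totals. Among the members these are the 20 and 15 calls with LPS that changed sign. The reversed values were, for LPS in BHLHE40-Fl, Mrps18a (-0.085), Mrps18b (-0.23), Mrps18c (-0.21), Nrf1 (-0.10), Gabpa (-0.23), Mrpl15 (-0.086), Mrpl19 (-0.18), Mrpl20 (-0.34), Mrpl3 (-0.043), Mrpl32 (-0.074), Mrpl35 (-0.17), Mrpl38 (-0.069), Mrpl46 (-0.0023), Mrpl55 (-0.14), Mrpl58 (-0.23), Mrpl9 (-0.27), Mrps11 (-0.20), Mrps2 (-0.22), Mrps22 (-0.089), Mrps27 (-0.13), Mrps34 (-0.28), Mrps7 (-0.37), Dap3 (-0.32) and Ppp1r10 (-0.34), for LPS in Lyz2Cre, Mrps18a (-0.35), Mrpl15 (-0.40), Mrpl20 (-0.26), Mrpl21 (-0.14), Mrpl24 (-0.30), Mrpl3 (-0.076), Mrpl32 (-0.043), Mrpl35 (-0.40), Mrpl37 (-0.41), Mrpl4 (-0.32), Mrpl44 (-0.24), Mrpl52 (-0.16), Mrpl9 (-0.48), Mrps22 (-0.14), Mrps7 (-0.44) and Ppp1r10 (-0.40), and for genotype with LPS, Gabpa (0.0041). With equal library totals the members called higher and lower were 4 and 50 for LPS in BHLHE40-Fl, 4 and 63 for LPS in Lyz2Cre, 37 and 0 for genotype with LPS and 11 and 4 for genotype in controls. Their median log2 differences were then -0.46, -0.66, 0.32 and 0.085, and 0.23 for the interaction. Higher genes then made up 21.5%, 20.1%, 73.5%, 66.9% and 64.1% of all calls in the 5 comparisons, against 49.3%, 51.2%, 47.2%, 47.5% and 50.5% as deposited.

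With quantile normalization 11 members were lower for LPS in BHLHE40-Fl, 6 higher and 5 lower for genotype in controls (median 0.0084), and 1 lower for the interaction, as with a filter at 5 (1 lower). The median was -0.055 with TMM scaling and -0.061 with edgeR for LPS in Lyz2Cre, and 0.19 and 0.20 for the interaction. With 1 library left out, the counts higher and lower ranged from 26 to 30 and 5 to 10 for LPS in BHLHE40-Fl (median 0.10 to 0.21), 18 to 23 and 15 to 18 for LPS in Lyz2Cre (0.02 to 0.11), 13 to 19 and 9 to 16 for genotype with LPS (-0.037 to 0.074), 1 to 2 and 6 to 12 for genotype in controls (-0.14 to -0.05), and 9 to 14 and 0 to 3 for the interaction (0.022 to 0.19). The shares of the library total in members ranged from 0.129% to 0.137%, 0.109% to 0.111%, 0.169% to 0.172% and 0.161% to 0.168% in BHLHE40-Fl with LPS, Lyz2Cre with LPS, BHLHE40-Fl controls and Lyz2Cre controls. The causes of these changes were not tested beyond the scaling itself.

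No pairing by replicate number was detected: deviations of same-numbered libraries correlated at -0.066 to 0.028 (18 pairs), and 2 of 12 libraries were closest to their own number. Such correlations over all tested genes cannot exclude a shared origin of these libraries. With the replicate block the counts were 28 and 7, 20 and 16, 18 and 12, 1 and 10, and 12 and 0 in the order above. Reads per member were lowest for Mrpl23, and the smallest count of any member in a library was 6.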
